A study of Mus musculus with 12 samples.

Results

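The cathepsins and legumain are the main protein-cutting enzymes of the lysosome, and 10 of their genes, Ctsa, Ctsb, Ctsc, Ctsd, Ctsh, Ctsk, Ctsl, Ctss, Ctsz and Lgmn, were followed among the 37620 gene identifiers of the count table. The family was picked by its known function with the measured changes in these libraries already known, among them the higher Ctsk level in hypoxia with lactate, so the tests below describe size against spread and are not independent evidence. Each gene was found by its Ensembl identifier, and 10 of 10 passed the filter on low counts, as did 14616 genes in all. RNA was sequenced from primary macrophages grown from the bone marrow of C57BL/6 mice and taken at day 7 of culture, in 12 libraries. There were 4 groups of 3 libraries, which were hypoxia (1% oxygen) with 25 mM sodium lactate, hypoxia with 25 mM NaCl, normoxia with 25 mM sodium lactate, and normoxia with 25 mM NaCl as the salt control. They are called hypoxia-lactate, hypoxia-NaCl, normoxia-lactate and normoxia-NaCl, and a library is named by its group with its number. The question posed is what low oxygen, lactate and their combination do to macrophage transcripts.

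Most cathepsins are cysteine proteases related to papain, while cathepsin D is an aspartic protease, cathepsin A a serine carboxypeptidase and legumain a cysteine protease that cuts after asparagine. They are made as inactive precursors, reach the lysosome largely by mannose 6-phosphate receptors, and are activated there at acid pH. In macrophages they digest engulfed material and prepare antigens for MHC class II, and some are secreted and act on matrix. Cathepsin K, which cleaves collagen, is best known as the bone-resorbing protease of osteoclasts, cells that share their precursors with macrophages.

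Between 22705978 and 49885085 reads per library fell in genes. A single cathepsin or legumain gene had 1096 to 683215 reads in a library, and the 10 genes together took 2.1% to 3.52% of the reads in genes, so counting error is small beside the spread between libraries. Library hypoxia-lactate 3 stood apart, with 11437 genes at 10 or more reads, 0.486% mitochondrial reads and a median Spearman correlation of 0.906 with the other libraries. Normoxia-NaCl 1 had 13198 such genes, 4.75% mitochondrial reads and a median correlation of 0.966, while the other 10 libraries had 13751 to 14767 genes, 2.04% to 3.51% and 0.977 to 0.987. Values are therefore given with and without hypoxia-lactate 3 where it moves them. The 8 macrophage markers summed to 40100 to 45900 CPM in hypoxia-lactate, 34100 to 46700 in hypoxia-NaCl, 42700 to 48900 in normoxia-lactate and 33200 to 38500 in normoxia-NaCl (CPM, read counts scaled to library size after TMM normalization). The labels do not say whether same-group libraries came from separate mice or cultures, so each p-value is set against a spread between libraries that may be technical. In such bulk samples, fewer cells that express a gene and less RNA per cell cannot be told apart.

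The genes cover a wide range of levels. Per exon length (RPKM, here CPM per kilobase of exon), and averaged over the 12 libraries, Ctss ranked 4th of 14122 tested genes with a symbol at 4784 RPKM and Ctsd 7th at 3849 RPKM. Ctsb followed at 1248 RPKM (29th), Ctsz at 886 (40th), Ctsa at 347 (112th), Lgmn at 319 (129th) and Ctsl at 175 (277th). The lowest were Ctsk at 112 RPKM (427th), Ctsh at 52.6 (929th) and Ctsc at 9.13 (4756th). The exon length is the union of all annotated exons of a gene, 1358 bases in Ctss and 6051 in Ctsb, so this order depends on it. By mean CPM, without length, Ctsd ranked 6th, Ctsb 7th and Ctss 10th. Ctsk had the widest range between single libraries, 9.52-fold from its lowest to its highest, against 1.62-fold to 3.27-fold for the other 9 genes.

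**Figure D1:**
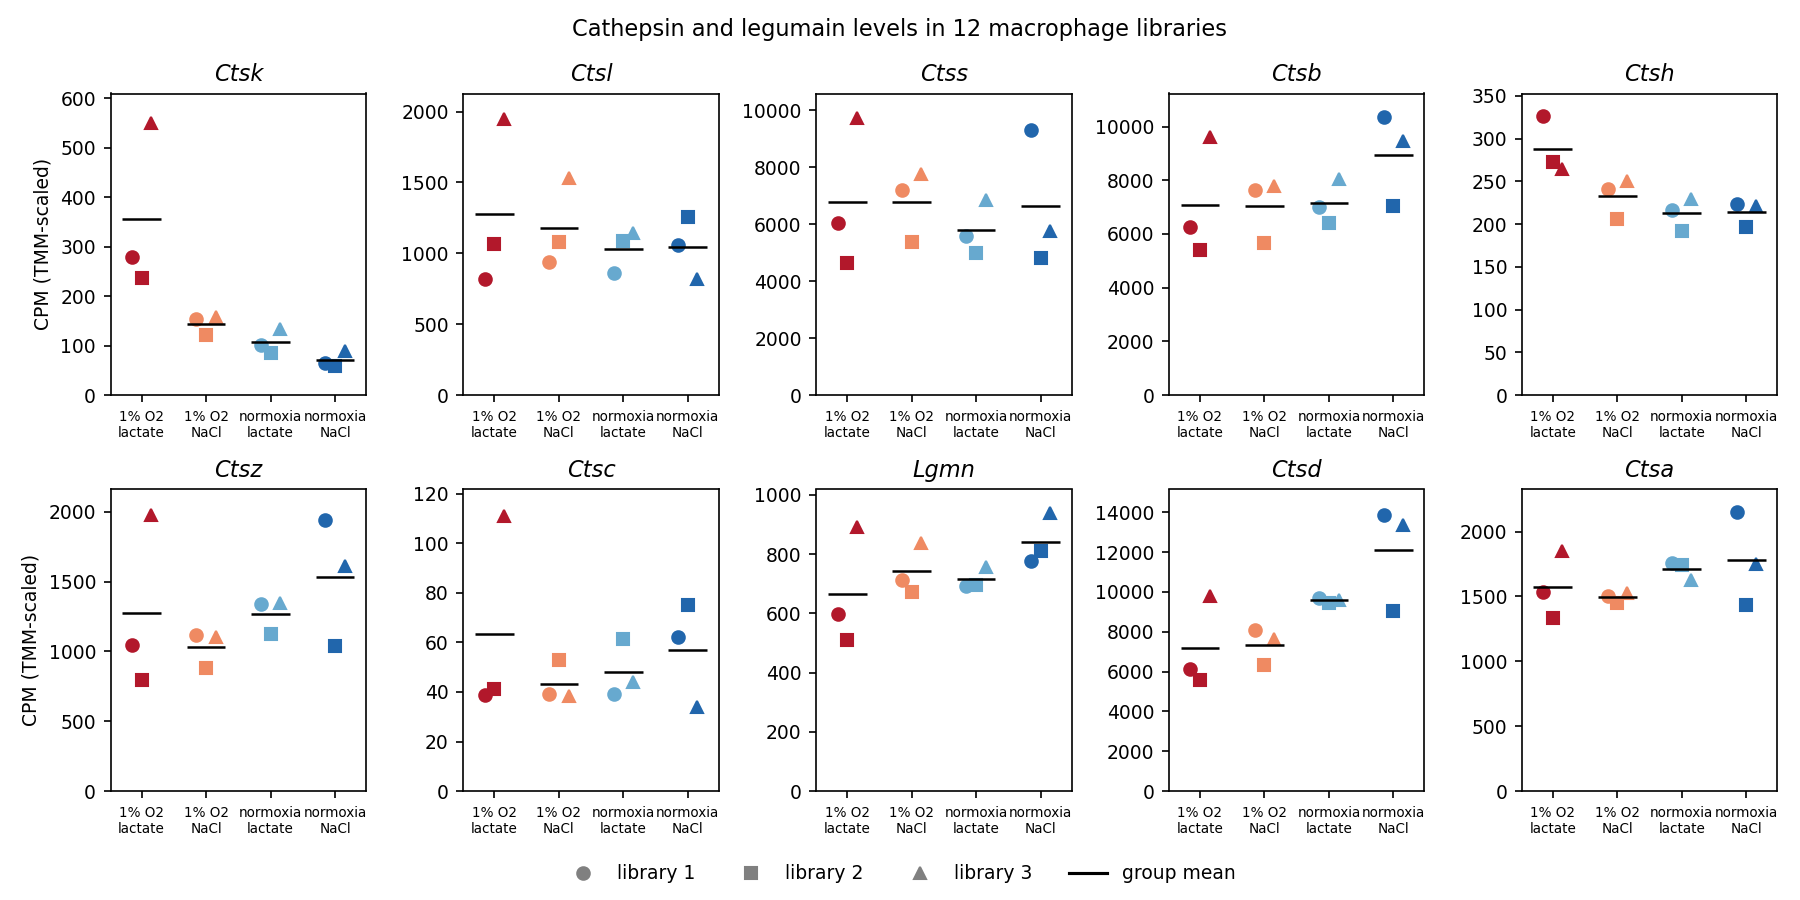
TMM-scaled CPM (vertical axes from 0, a different scale for each gene) of the 10 genes in hypoxia-lactate, hypoxia-NaCl, normoxia-lactate and normoxia-NaCl. Points are single libraries, their shape gives the library number, and the line is the mean of 3. Ctsk lay at 237 to 550 CPM in hypoxia-lactate, above every other library, and the mean of Ctsd was highest in normoxia-NaCl.

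Among the cysteine endopeptidases, Ctsk was highest where low oxygen and lactate were combined. It had 279, 237 and 550 CPM in hypoxia-lactate, 153, 122 and 157 CPM in hypoxia-NaCl, 101, 84.2 and 134 CPM in normoxia-lactate, and 65.1, 57.7 and 88.6 CPM in normoxia-NaCl. Every hypoxia-lactate library exceeded every other library, and the hypoxia-NaCl libraries exceeded the normoxia-NaCl ones, while hypoxia-NaCl overlapped normoxia-lactate and normoxia-lactate overlapped normoxia-NaCl. The means were 355 ± 170 CPM in hypoxia-lactate, 144 ± 19.2 in hypoxia-NaCl, 106 ± 25.2 in normoxia-lactate and 70.5 ± 16.1 in normoxia-NaCl (SD, n = 3 each). The first of these was 258 CPM over hypoxia-lactate 1 and 2.

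Against normoxia-NaCl, Ctsk was higher in hypoxia-lactate by 2.33 ± 0.32 (log2 fold change ± SE), a 5.03-fold change with a 95% interval of 1.64 to 3.02 on the log2 scale and an adjusted p = 0.00379 (edgeR quasi-likelihood F test, Benjamini-Hochberg method over all tested genes). It was higher in 3 of 3 libraries. In that comparison 1 of the 10 genes passed the threshold of 0.05, and 1.61% of all tested genes did. At an unadjusted p under 0.05 there were 3 of the 10 and 3027 genes in all. Without hypoxia-lactate 3 the change was 1.87 with an adjusted p = 0.00055, and in a fit of those 2 groups alone it was 2.34 with an adjusted p = 0.129. The former fit had 1035 of 15088 tested genes past the threshold.

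In lactate medium, Ctsk differed between hypoxia-lactate and normoxia-lactate by 1.74 ± 0.31 on the log2 scale, a value known when the family was picked and given here as a description. Ctsk was the 1 gene of the 10 past the threshold there, at an edgeR adjusted p = 0.0457, and 0.226% of all tested genes were past it. At an unadjusted p under 0.05 there were 2 of the 10 and 2137 genes in all. That call lay close to the threshold. It was lost when any single library other than hypoxia-lactate 2 or 3 was left out, with RLE scaling (adjusted p = 0.0587) and in a fit of those 2 groups alone (adjusted p = 0.612). Without hypoxia-lactate 3 the change was 1.27 with an edgeR adjusted p = 0.018, and 130 of 15088 tested genes passed the threshold.

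Low oxygen without lactate gave a difference of 1.03 ± 0.31 in Ctsk (hypoxia-NaCl over normoxia-NaCl, edgeR adjusted p = 0.435), with 3 of 3 hypoxia-NaCl libraries above all of normoxia-NaCl. Such a separation was found upwards in 12.8% of all tested genes. None of the 10 genes passed the threshold in that comparison, where 0.281% of all tested genes passed, and 2 of the 10 had an unadjusted p under 0.05, as did 948 of all 14616 genes. The difference was again 1.03, with an edgeR adjusted p = 0.0247, when hypoxia-lactate 3, a library of neither group compared, was left out of the fit. The filter, scaling, shared spread and adjustment were then all computed anew, and 270 of 15088 tested genes passed the threshold. With the library number as a block, which the data allow in this comparison, it was 1.05 with an adjusted p = 0.0713.

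Lactate gave a Ctsk difference of 1.30 ± 0.31 in low oxygen (hypoxia-lactate over hypoxia-NaCl, edgeR adjusted p = 0.432) and of 0.59 ± 0.30 in normoxia (normoxia-lactate over normoxia-NaCl, adjusted p = 1). Without hypoxia-lactate 3 the first was 0.85 with an adjusted p = 0.278. In each of the 2 lactate comparisons 0 of the 10 genes and 0% of all tested genes passed the threshold in edgeR. At an unadjusted p under 0.05 there were 1 of the 10 genes and 1664 genes in all for lactate in low oxygen, and 0 of the 10 and 227 in all for lactate in normoxia. DESeq2 called 112 genes in low oxygen, Ctsk among them, and 10 in normoxia.

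The interaction, which asks whether the oxygen difference is larger with lactate than with NaCl, was 0.71 ± 0.43 for Ctsk on the log2 scale, with a 95% interval of -0.22 to 1.64 (edgeR adjusted p = 0.902). Without hypoxia-lactate 3 it was 0.25. Here too 0 of the 10 genes and 0% of all tested genes passed, with 0 of the 10 and 497 genes in all at an unadjusted p under 0.05, and 1 gene in all called by DESeq2. That interval includes 0 and also a difference of over 2-fold.

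**Figure D2:**
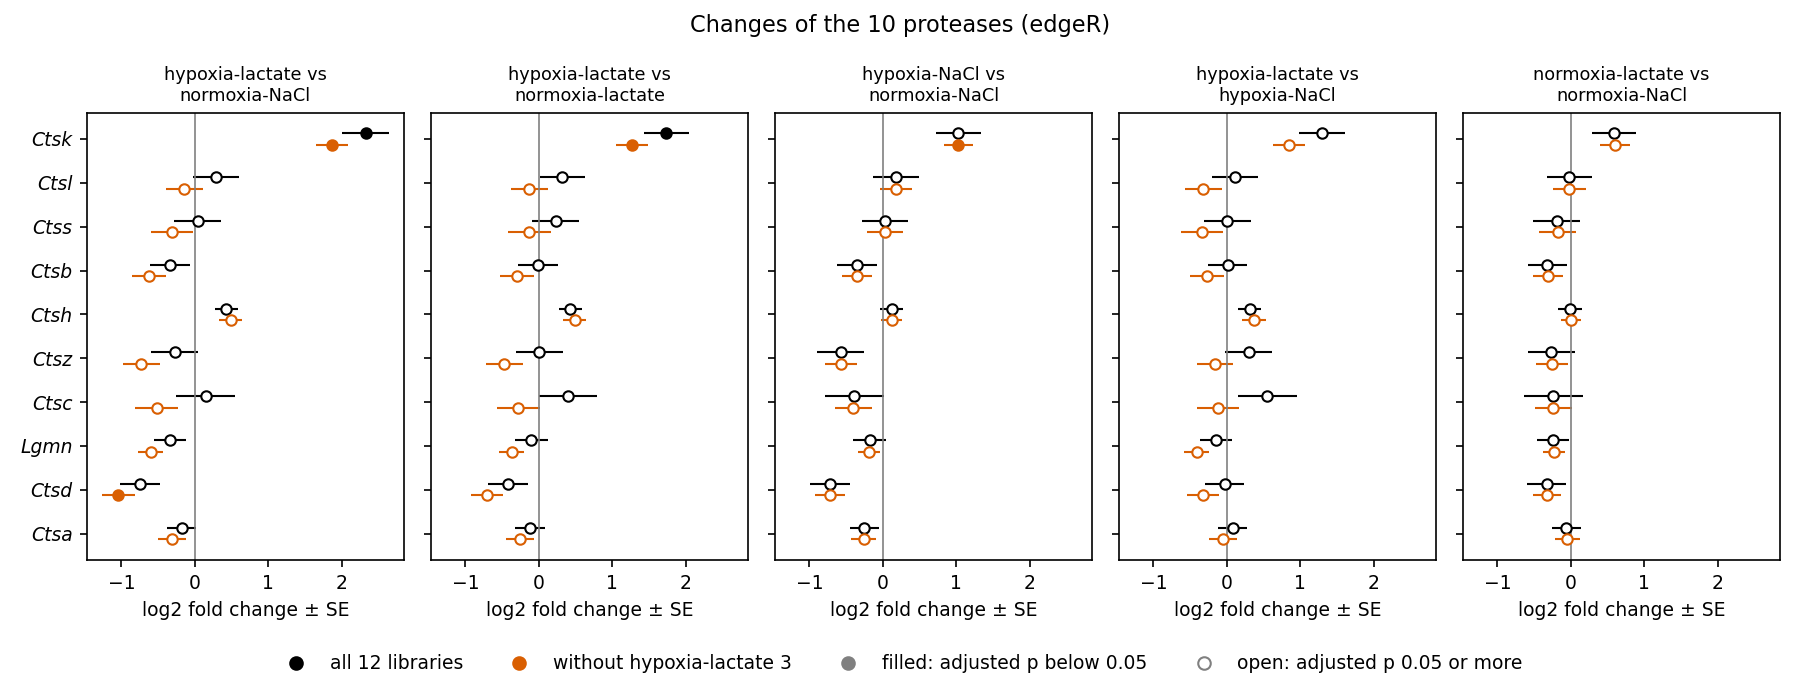
Log2 fold change (horizontal axis, bars are SE) of the 10 genes in 5 comparisons from edgeR fits over all 12 libraries (black) and without hypoxia-lactate 3 (orange). Filled points have an adjusted p below 0.05. Ctsk was at 2.33 and 1.87 in hypoxia-lactate against normoxia-NaCl, and the changes of Ctsc, Ctsl and Ctss in that comparison differ in sign between the 2 fits.

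Ctsk was also set against Ctsd and Ctss, the most abundant of the 10 genes per length. Per 1000 Ctsd reads of the same library, a ratio that no scaling of libraries can change and that was chosen after the values were seen, there were 45.4, 42.2 and 56.2 Ctsk reads in hypoxia-lactate. There were 19, 19.2 and 20.5 in hypoxia-NaCl, 10.4, 8.92 and 13.9 in normoxia-lactate, and 4.69, 6.4 and 6.63 in normoxia-NaCl. No group overlapped another, and the outlying hypoxia-lactate 3 lay with its group. Both genes enter this ratio. Ctsd itself averaged 7175 CPM in hypoxia-lactate, 7348 in hypoxia-NaCl, 9589 in normoxia-lactate and 12088 in normoxia-NaCl. By Ctsk CPM alone, normoxia-lactate overlapped both hypoxia-NaCl and normoxia-NaCl. How often ratios of other genes separate the groups was not tested.

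**Figure D3:**
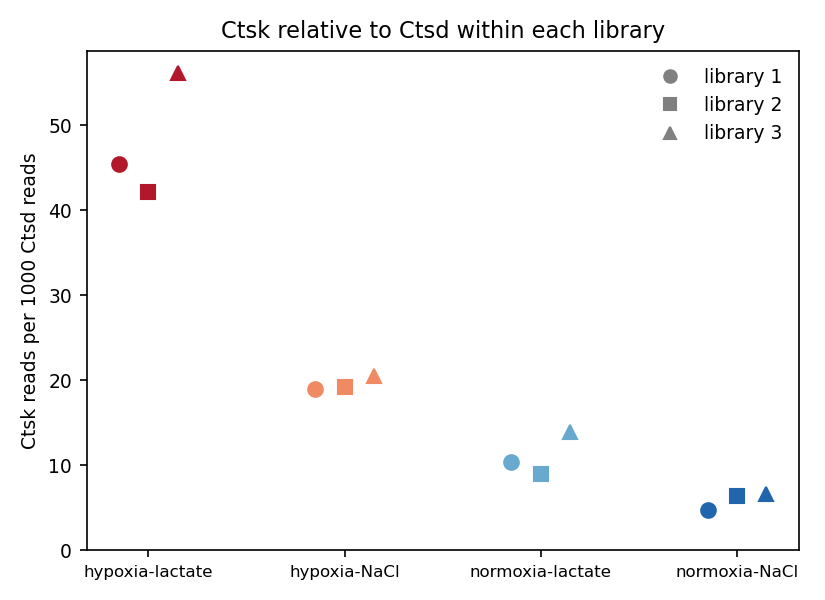
Ctsk reads per 1000 Ctsd reads (vertical axis from 0) in each of the 12 libraries by group, with the library number as the point shape. The 3 hypoxia-lactate libraries lie at 42.2 to 56.2, and the 4 groups do not overlap.

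Against Ctss, the gene next to Ctsk on chromosome 3 and on the same strand, with 0 annotated genes between them in GENCODE M21 (GRCm38), the picture was similar but less separated. Per 1000 Ctss reads there were 46.3, 51.1 and 56.5 Ctsk reads in hypoxia-lactate, 21.2, 22.7 and 20.2 in hypoxia-NaCl, 18, 16.9 and 19.6 in normoxia-lactate and 7.01, 12 and 15.4 in normoxia-NaCl. The 4 groups again did not overlap.

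Ctss, which encodes a cathepsin that stays active at neutral pH and trims the invariant chain of MHC class II, had 6022, 4628 and 9730 CPM in hypoxia-lactate, 7210, 5362 and 7750 CPM in hypoxia-NaCl, 5573, 4990 and 6839 CPM in normoxia-lactate and 9292, 4812 and 5758 CPM in normoxia-NaCl. All pairs of groups overlapped. Hypoxia-lactate over normoxia-NaCl was 0.04 ± 0.32 on the log2 scale, with a 95% interval of -0.67 to 0.74, and hypoxia-NaCl over normoxia-NaCl was 0.03 with an interval of -0.67 to 0.74. Those intervals leave room for changes of over 1.5-fold either way. The first was -0.31 without hypoxia-lactate 3, and there the Ctss difference of hypoxia-lactate was -0.13 over normoxia-lactate, against 0.23 with all libraries, and -0.34 over hypoxia-NaCl, against 0.0041.

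Ctsl, a cysteine endopeptidase of broad specificity, had 821, 1068 and 1951 CPM in hypoxia-lactate, 939, 1079 and 1529 CPM in hypoxia-NaCl, 858, 1086 and 1141 CPM in normoxia-lactate and 1057, 1253 and 822 CPM in normoxia-NaCl. The groups overlapped throughout, and its 5 differences between groups ran from -0.02 to 0.32 on the log2 scale. Without hypoxia-lactate 3 those that involve hypoxia-lactate turned in sign, to -0.13 over normoxia-lactate, -0.32 over hypoxia-NaCl and -0.14 over normoxia-NaCl.

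Ctsh, an aminopeptidase, was the other gene whose hypoxia-lactate libraries lay above every other library. It had 326, 273 and 264 CPM in hypoxia-lactate, 241, 206 and 250 CPM in hypoxia-NaCl, 217, 192 and 229 CPM in normoxia-lactate and 224, 197 and 221 CPM in normoxia-NaCl. So 2 of the 10 genes, Ctsk and Ctsh, were higher without overlap in each of these comparisons, and of all tested genes 8.23% were over normoxia-lactate, 6.69% over hypoxia-NaCl and 9.39% over normoxia-NaCl. The Ctsh difference was 0.43 ± 0.16 on the log2 scale over normoxia-lactate (edgeR adjusted p = 0.283), 0.43 ± 0.16 over normoxia-NaCl (adjusted p = 0.172) and 0.31 ± 0.16 over hypoxia-NaCl (adjusted p = 0.477), none past the threshold. DESeq2 put the first of these at 0.48 (adjusted p = 0.0456) and the second at 0.48 (adjusted p = 0.0234). It called 437 and 1450 of all 14616 tested genes in those comparisons.

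Of the remaining exopeptidases, Ctsb, which also cuts inside proteins, had 6241, 5397 and 9593 CPM in hypoxia-lactate, 7635, 5675 and 7772 CPM in hypoxia-NaCl, 7018, 6395 and 8031 CPM in normoxia-lactate and 10348, 7041 and 9449 CPM in normoxia-NaCl. Ctsz, a carboxypeptidase, had 1044, 796 and 1979 CPM in hypoxia-lactate, 1118, 880 and 1101 CPM in hypoxia-NaCl, 1337, 1127 and 1344 CPM in normoxia-lactate and 1945, 1041 and 1615 CPM in normoxia-NaCl. Ctsc, a dipeptidyl peptidase that activates granule proteases, was scarce, at 38.6, 41.1 and 111 CPM in hypoxia-lactate, 39.1, 52.8 and 38.3 CPM in hypoxia-NaCl, 39.2, 61.2 and 44.2 CPM in normoxia-lactate and 62.3, 75 and 33.9 CPM in normoxia-NaCl. In all 3 genes hypoxia-lactate 3 was the highest library of its group, and the groups compared overlapped.

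For hypoxia-NaCl over normoxia-NaCl the log2 difference was -0.57 ± 0.32 in Ctsz, -0.35 ± 0.27 in Ctsb and -0.39 ± 0.40 in Ctsc, with edgeR adjusted p-values of 0.868, 0.953 and 0.97. For hypoxia-lactate over normoxia-NaCl it was -0.27 in Ctsz, -0.34 in Ctsb and 0.15 in Ctsc, and without hypoxia-lactate 3 it was -0.73, -0.62 and -0.52 in the same order of genes, again not past the threshold.

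Lgmn, the asparaginyl endopeptidase that helps mature several cathepsins, had 598, 511 and 890 CPM in hypoxia-lactate, 714, 673 and 838 CPM in hypoxia-NaCl, 693, 697 and 756 CPM in normoxia-lactate and 777, 810 and 939 CPM in normoxia-NaCl. The normoxia-lactate libraries lay below the normoxia-NaCl ones, by -0.24 ± 0.22 on the log2 scale (edgeR adjusted p = 1), and 6.16% of all tested genes were lower without overlap there. Hypoxia-lactate over normoxia-NaCl was -0.34 ± 0.22 (adjusted p = 0.397), and without hypoxia-lactate 3 it was -0.60 (adjusted p = 0.0516).

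Ctsd, the aspartic protease and one of the most abundant transcripts of these cells, was lower in hypoxia in most libraries. It had 6135, 5603 and 9787 CPM in hypoxia-lactate, 8068, 6324 and 7651 CPM in hypoxia-NaCl, 9716, 9441 and 9609 CPM in normoxia-lactate and 13877, 9026 and 13360 CPM in normoxia-NaCl. All hypoxia-NaCl libraries lay below all normoxia-NaCl ones, and hypoxia-lactate 1 and 2 lay below every normoxia library. Of all tested genes, 12% were lower without overlap in hypoxia-NaCl than in normoxia-NaCl, a share close to the 1 of 10 here. The difference was -0.72 ± 0.27 on the log2 scale for hypoxia-NaCl over normoxia-NaCl (edgeR adjusted p = 0.63) and -0.75 ± 0.27 for hypoxia-lactate over normoxia-NaCl (adjusted p = 0.148), neither past the threshold. Without hypoxia-lactate 3 the second was -1.04 with an edgeR adjusted p = 0.0177. In that fit 1035 of 15088 tested genes passed the threshold, against 235 of 14616 with all libraries.

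Ctsa, the carboxypeptidase that also protects the lysosomal enzymes Neu1 and Glb1, had 1534, 1332 and 1853 CPM in hypoxia-lactate, 1503, 1451 and 1526 CPM in hypoxia-NaCl, 1761, 1739 and 1624 CPM in normoxia-lactate and 2152, 1431 and 1754 CPM in normoxia-NaCl. The hypoxia-lactate and normoxia-NaCl libraries spread widely, and the 5 differences between groups ran from -0.25 to 0.08 on the log2 scale, none past the threshold. Without hypoxia-lactate 3 its difference was -0.26 for hypoxia-lactate over normoxia-lactate, against -0.12 with all libraries, -0.31 over normoxia-NaCl, against -0.18, and -0.05 over hypoxia-NaCl, against 0.08.

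As shares of the summed RPKM of the 10 genes, which depend on the exon lengths used, Ctss and Ctsd made up most of the family. Without length, Ctsb was near them, at a mean of 7077 CPM in hypoxia-lactate against 7175 in Ctsd and 6793 in Ctss. The shares of Ctss and Ctsd differed between hypoxia and normoxia libraries. Ctsd took 26.3% to 29.3% in hypoxia-lactate, 26.9% to 29.6% in hypoxia-NaCl, 33.0% to 38.3% in normoxia-lactate and 35.0% to 41.7% in normoxia-NaCl. Ctss took 41.9% to 45.4% in hypoxia-lactate, 43.5% to 47.2% in hypoxia-NaCl, 35.1% to 40.7% in normoxia-lactate and 31.1% to 40.6% in normoxia-NaCl. For both genes the 6 hypoxia libraries, hypoxia-lactate 3 included, did not overlap the 6 normoxia libraries in share. In CPM all groups overlapped for Ctss, with a log2 difference of 0.03 for hypoxia-NaCl over normoxia-NaCl and 0.23 for hypoxia-lactate over normoxia-lactate. How often shares of other genes separate these libraries was not tested. Ctsk took 1.89% to 2.30% in hypoxia-lactate, 0.857% to 0.886% in hypoxia-NaCl, 0.532% to 0.715% in normoxia-lactate and 0.255% to 0.430% in normoxia-NaCl. Shares sum to a whole, so a higher share of a gene lowers the others.

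**Figure D4:**
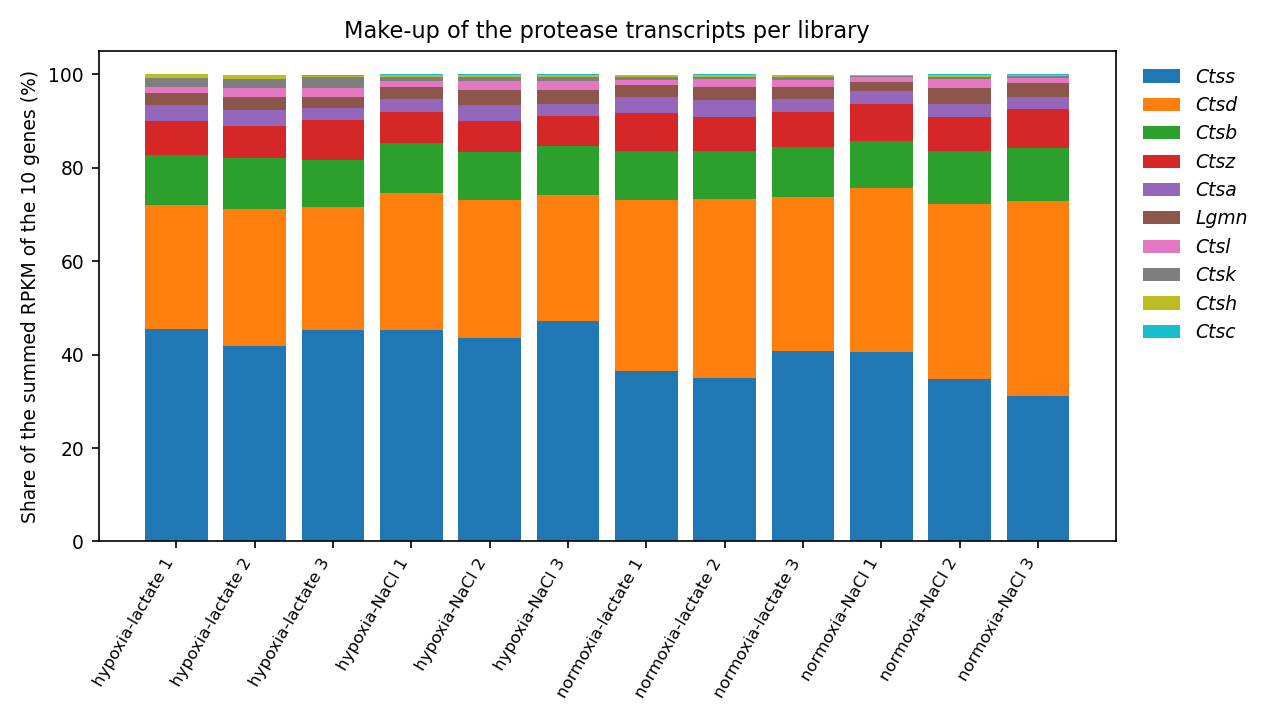
Share of the summed RPKM of the 10 genes (vertical axis, percent) in each library, stacked by gene, with hypoxia libraries on the left and normoxia libraries on the right. Ctss and Ctsd made up most of every bar, and Ctsd took 26.3% to 29.6% in hypoxia libraries, against 33.0% to 41.7% in normoxia libraries.

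The summed level of the family was 26544 ± 8942 CPM in hypoxia-lactate, 26019 ± 3666 CPM in hypoxia-NaCl, 27625 ± 1987 CPM in normoxia-lactate and 33194 ± 7066 CPM in normoxia-NaCl (SD, n = 3 each), with overlapping libraries. The median log2 change of the 10 genes was -0.22 for low oxygen without lactate, 0.12 for low oxygen with lactate, -0.21 for lactate in normoxia, 0.09 for lactate in low oxygen, -0.07 for low oxygen plus lactate and 0.31 for the interaction. Over all tested genes these medians were 0.01, -0.03, 0.01, -0.03, -0.01 and -0.04. Without hypoxia-lactate 3 the median of the 10 genes was -0.27 for low oxygen with lactate, -0.21 for lactate in low oxygen, -0.41 for low oxygen plus lactate and 0.03 for the interaction. Other single libraries moved it too. The median for lactate in normoxia was -0.04 without normoxia-NaCl 1, -0.14 without normoxia-lactate 1 and -0.13 without normoxia-lactate 2. For low oxygen plus lactate it was 0.10 without normoxia-NaCl 1, 0.11 without hypoxia-lactate 2, -0.02 without hypoxia-lactate 1, and -0.23 and -0.17 without normoxia-NaCl 2 and 3. That for low oxygen with lactate was 0.22 and 0.34 without hypoxia-lactate 1 and 2, 0 without normoxia-lactate 2 and 0.19 without normoxia-lactate 3. For lactate in low oxygen it was 0.16 and 0.24 without hypoxia-lactate 1 and 2 and 0.23 without hypoxia-NaCl 3. Over the 12 leave-outs the median for low oxygen without lactate stayed between -0.27 and -0.17. In the fit of all libraries 6 of the 10 genes were negative there and 4 positive, and 48.8% of all tested genes were negative. No direction of the family is read from any of these medians.

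Part of the genes also varied together by library number. Library 2 was the lowest of its group in all 4 groups for Ctsb, Ctsd, Ctsk, Ctss and Ctsz, that is 5 of 10 genes, against 3.62% of all tested genes. It was lowest in 0 groups for Ctsc and Ctsl and in 2 for Lgmn. Libraries 1 and 3 were lowest in all 4 groups for 0 of the 10 genes and for 1.05% and 4.09% of all tested genes. What the numbers stand for is not given in the labels. Over the 12 libraries, Pearson's r of log2 levels was 0.932 between Ctsb and Ctsz, 0.907 between Ctsa and Ctsz and 0.856 between Ctsd and Ctsz. Between Ctsd and Ctsl it was -0.0062. It was 0.783 between Ctsk and Ctsh and -0.472 between Ctsk and Ctsd, or 0.867 and -0.771 without hypoxia-lactate 3. These points share their libraries and groups, so the values are descriptive.

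The genes whose log2(CPM + 1) followed Ctsk most closely over the 12 libraries, among 9908 genes with a mean of at least 5 CPM, were Sgms1 (r = 0.962), Fndc3b (0.957), Pfkp (0.957), Upf2 (0.957) and Npepps (0.955). Over the 11 libraries without hypoxia-lactate 3 they were Mturn (0.968), Atp2b1 (0.959), Rsbn1 (0.951), Stk38l (0.947) and Folr2 (0.947). The 2 lists have no gene in common.

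Other genes of the pathway were taken from lists chosen with earlier results known. Of a list of protease inhibitors, 5 of 14 listed genes were tested. The list held cystatins and serpins and was not limited to inhibitors of the 10 proteases. For hypoxia-lactate over normoxia-NaCl, 1 of the 5 had a positive log2 change and 4 a negative one, with a median of -0.51. Serpinb6a was at -0.79 ± 0.23 (edgeR adjusted p = 0.0991). Just 1 of the 5, a gene with a positive change, was past the threshold, against 1.61% of all tested genes. It was Serpinb9, a serpin known mainly as an inhibitor of granzyme B, at 27.7, 47.1 and 24.4 CPM in hypoxia-lactate, 9.85, 12.9 and 14.5 CPM in hypoxia-NaCl, 15.6, 25.3 and 25.4 CPM in normoxia-lactate and 9.14, 15.1 and 10.3 CPM in normoxia-NaCl. The change over normoxia-NaCl was 1.52 ± 0.33 on the log2 scale (edgeR adjusted p = 0.0418). The cystatins did not pass the threshold. Cst3, the secreted cystatin C, averaged 1337 ± 261 CPM in hypoxia-lactate and 1849 ± 834 CPM in normoxia-NaCl, and Cstb, the intracellular cystatin B, 326 ± 25.5 CPM in hypoxia-lactate and 463 ± 158 CPM in normoxia-NaCl (SD, n = 3 each). Cst7 was under the filter on low counts.

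None of the 12 sorting and partner genes, the 4 MiT family transcription factors, the 8 MHC class II processing genes, the 8 tested of 10 osteoclast genes or the 4 tested of 14 further cathepsins passed the threshold in any of the 6 comparisons. For hypoxia-lactate over normoxia-NaCl the log2 difference was -0.18 ± 0.23 in M6pr and 0.65 ± 0.32 in Igf2r, the mannose 6-phosphate receptors. It was -0.21 ± 0.30 in Psap, the saposin precursor, 0.36 ± 0.27 in Neu1 and -0.17 ± 0.18 in Glb1. Among the transcription factors of lysosomal genes it was 0.08 ± 0.37 in Tfeb, -0.15 ± 0.17 in Tfe3 and 0.47 ± 0.20 in Mitf. Of these 8 genes, only Mitf had an unadjusted p under 0.05 there.

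Since Ctsk also marks other cells, their markers are given beside it. The 5 osteoclast markers summed to 51.5 to 146 CPM in hypoxia-lactate, 43.8 to 80.6 CPM in hypoxia-NaCl, 51.8 to 83.7 CPM in normoxia-lactate and 34.9 to 67.3 CPM in normoxia-NaCl. Of them Calcr, the calcitonin receptor, was at 0 in every library, and 3 of 5 were tested, with 0 past the threshold. For hypoxia-lactate over normoxia-NaCl, 2 of these 3 had a positive log2 change and 1 a negative one. Among the 8 tested genes of the longer osteoclast list, 3 were positive and 5 negative there, with a median of -0.22. The 3 positive were Car2 at 1.87 ± 0.55 (edgeR adjusted p = 0.0991, means of 3.96 and 1.09 CPM), Dcstamp at 1.31 ± 0.73 and Acp5 at 0.61 ± 0.27. The 5 negative ran from -1.20 ± 0.59 in Atp6v0d2 to -0.15 ± 0.18 in Nfatc1. No direction of that list is read from its median. The 6 fibroblast markers summed to 43.2 to 97.7 CPM in hypoxia-lactate, 25.2 to 100 CPM in hypoxia-NaCl, 34.8 to 78.5 CPM in normoxia-lactate and 35.5 to 95.8 CPM in normoxia-NaCl, overlapping throughout. Neutrophil markers summed to at most 52.1 CPM, and those of dendritic, B, T and mast cells to at most 4.75 CPM for each list, in any library. The part of either cell type in the Ctsk level was not tested. Of the 8 macrophage markers, 4 were higher and 4 lower in hypoxia-lactate than in normoxia-NaCl, with a median log2 change of -0.04. Cd14, the lipopolysaccharide co-receptor, was the 1 past the threshold, higher by 1.27 ± 0.24 (edgeR adjusted p = 0.0214). Mertk, among the 4 that were lower, was at -1.57 ± 0.39 (edgeR adjusted p = 0.0693).

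Sequence near a RefSeq start is shown for Ctsk, the gene that rose, and for Ctsd, whose level ran against it. RefSeq (GRCm38.p6) gave windows of 250 bases before the start for 8 of the 10 genes, 10 windows in all. Each window was searched on both strands for CACGTG, the core of sites for MiT factors, and for ACGTG and GCGTG, the cores of sites for HIF. ACGTG lies within CACGTG, so a CACGTG also counts as ACGTG. The Ctsk window, chr3:95498960-95499209 on the plus strand, lies wholly before the gene as annotated in GENCODE M21. That gene begins later than the RefSeq start, at chr3:95499256. The bases just after the RefSeq start were not found in a GENCODE M21 transcript of Ctsk. The window held none of the 3 motifs.
Ctsk: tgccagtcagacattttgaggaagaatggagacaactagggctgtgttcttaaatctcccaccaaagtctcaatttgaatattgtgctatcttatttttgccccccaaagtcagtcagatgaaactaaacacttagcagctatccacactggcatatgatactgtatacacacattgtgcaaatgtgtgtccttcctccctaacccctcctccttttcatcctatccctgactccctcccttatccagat
The Ctsd window, chr7:142387828-142388077 on the minus strand, is only partly upstream, since 211 of its 250 bases lie inside the Ctsd gene of GENCODE M21, which begins earlier than the RefSeq start. It held CACGTG at 2 places, beginning 245 and 98 bases before the RefSeq start, the first before the GENCODE gene and the second inside it, and GCGTG once, beginning 160 bases before the RefSeq start. The CACGTG sites are printed with up to 10 bases on each side and the motif in capitals, at chr7:142388057-142388077 and chr7:142387910-142387935.
Ctsd, 245 before the start: tccccCACGTGacctgtatcc
Ctsd, 98 before the start: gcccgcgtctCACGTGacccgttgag
CACGTG was also in a window each of Ctsa, Ctsl and Lgmn, GCGTG was also in both windows of Ctsa and in a window each of Ctsc and Lgmn, and none of the 3 motifs was in the Ctss and Ctsz windows. The windows of Ctsa, Ctsl and Lgmn with CACGTG lie wholly inside the genes as GENCODE M21 annotates them. Of 32851 windows of the same length over all genes, 6.02% held CACGTG, 16.6% ACGTG and 28.2% GCGTG. A match describes these letters and is not a measured binding site.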

How the data were processed

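For 12 libraries the authors deposited unnormalized read counts, 1 column each, over Ensembl gene identifiers. Per the labels' protocols, poly(A) RNA was isolated on Dynabeads, made into Ion Total RNA-Seq v2 libraries and read on an Ion Proton. BWA, HTSeq and mm9 are named in the submitters' processing notes, without versions, while for annotation release and strandedness of counting the entry is: not given in the sources used here. In GENCODE M21 (GRCm38, used with RefSeq GRCm38.p6 for symbols, exon lengths and positions) exons of Ctsa, Ctsb, Ctsd, Ctsl and Ctsz overlap those of other genes, so their counts are uncertain. The 5 counters that name no gene held up to 22% of reads each and were left out. Reads in genes numbered 22705978 to 49885085 per library.

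Groups and library numbers came from the labels. The 6 comparisons were tested in 1 edgeR 4.0.16 fit (R 4.3.3; quasi-likelihood F test, TMM scaling, filterByExpr, a mean per group over 12 libraries), with Benjamini-Hochberg adjustment over 14616 genes and a threshold of 0.05. An SE is the absolute change (log2) divided by the root of F. The fit was tried on simulated counts, drawn independently for each library, with changed genes in hypoxia-NaCl alone. That simulation held no library with outlying expression and no spread shared by library number, so it does not cover these features of the data. The genes, lists and tests were chosen with earlier results of these data known. All 10 genes were named by rule, with fixed genes of the lists and any list gene past the threshold. Alternatives were RLE scaling, no filter, DESeq2 1.42.0, limma 3.58.1 voom with quality weights, the library number as a block, only the groups compared, and leaving out libraries; plain library totals were added after seeing the data. Same-numbered libraries of hypoxia-NaCl and normoxia-NaCl deviated together, at correlations of 0.142, 0.397 and 0.19, all over the limit of 0.1 for treating the numbers as pairs. In each other comparison at least 1 correlation was under it.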

Additional observations from a re-analysis of the deposited data

How the results depend on the processing

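Over 119 values under the alternatives and 6 comparisons, the log2 change of Ctsk reversed 0 times. Over the 10 genes 120 of 1190 values reversed direction, and 0 of those 120 were past the threshold in either fit. For low oxygen plus lactate Ctsk kept its call except with only the groups compared. The number of the 10 genes past the threshold moved for low oxygen without lactate to 2 with voom quality weights (Ctsd, Ctsk). For low oxygen with lactate it was 0 with RLE scaling and with only the groups compared, 2 with DESeq2 (Ctsh, Ctsk) and 3 with voom quality weights (Ctsd, Ctsh, Ctsk). For lactate in low oxygen it was 1 with DESeq2 (Ctsk). For low oxygen plus lactate it was 2 with DESeq2 (Ctsh, Ctsk), 4 with voom quality weights (Ctsd, Ctsh, Ctsk, Lgmn), 3 without both outlying libraries (Ctsd, Ctsk, Lgmn), 2 with library totals (Ctsd, Ctsk) and 0 with only the groups compared. Leaving out 1 library at a time gave 0 to 1, 0 to 1 and 1 to 2 of the 10 genes for low oxygen without lactate, with lactate and plus lactate, and 0 in the other comparisons. The replicate block changed none of the 6 counts for the 10 genes. Over all genes, those past the threshold for low oxygen plus lactate numbered 235, against 1450 with DESeq2, 1078 with voom quality weights 912 without both outlying libraries and 6 with only the groups compared. Those for low oxygen without lactate numbered 41, against 153 with DESeq2, 525 with voom quality weights and 188 without both outlying libraries. Those for low oxygen with lactate numbered 33, against 437, 737 and 380 under the same settings and 3 with only the groups compared. Leaving out 1 library gave 7 to 270, 3 to 130 and 67 to 1035 genes for low oxygen without, with and plus lactate. Lactate gave 11 genes in low oxygen and 3 in normoxia without both outlying libraries, and 16 and 11 with voom quality weights. Library totals, chosen after seeing the data, shifted the median of all genes to -0.14 for low oxygen with lactate, -0.15 for lactate in low oxygen and -0.20 for the interaction. The cause of these differences was not tested. Reversed log2 changes, all below the threshold, follow, and a setting holds until the next is named. With DESeq2 Ctsb was at 0.05 for low oxygen with lactate. Ctsd was at 0.05 for lactate in low oxygen. With RLE scaling Ctsb was at 0.05 for low oxygen with lactate. Ctsd was at 0.05 for lactate in low oxygen. With the replicate block Ctsz was at -0.07 for low oxygen with lactate. Ctsb was at -0.01 and Ctss at -0.03 for lactate in low oxygen. With only the groups compared Ctsz was at -0.02 for low oxygen with lactate. With library totals Ctsz was at -0.22 for low oxygen with lactate. Ctsa was at 0.02, Ctsh at 0.05 and Ctsl at 0.02 for lactate in normoxia. Ctsa was at -0.09, Ctsb at -0.18, Ctsl at -0.11 and Ctss at -0.20 for lactate in low oxygen. Ctsc was at -0.05 and Ctss at -0.07 for low oxygen plus lactate. Ctsa was at -0.11, Ctsl at -0.13, Ctss at -0.11 and Lgmn at -0.16 for the interaction. With voom quality weights Ctsc was at -0.09, Ctss at -0.07 and Ctsz at -0.48 for low oxygen with lactate. Ctsa was at 0.08, Ctsh at 0.02 and Ctss at 0.01 for lactate in normoxia. Ctsa was at -0.05, Ctsb at -0.23, Ctsc at -0.09, Ctsl at -0.19, Ctss at -0.29 and Ctsz at -0.13 for lactate in low oxygen. Ctsc was at -0.27, Ctsl at -0.08 and Ctss at -0.06 for low oxygen plus lactate. Ctsa was at -0.12, Ctsd at -0.06, Ctsl at -0.08, Ctss at -0.29, Ctsz at -0.05 and Lgmn at -0.05 for the interaction. Without hypoxia-lactate 3 and normoxia-NaCl 1 Ctsc was at -0.28, Ctsl at -0.13, Ctss at -0.13 and Ctsz at -0.47 for low oxygen with lactate. Ctsa was at 0.10, Ctsh at 0.03 and Ctss at 0.14 for lactate in normoxia. Ctsa was at -0.06, Ctsb at -0.27, Ctsc at -0.12, Ctsl at -0.32, Ctss at -0.35 and Ctsz at -0.17 for lactate in low oxygen. Ctsc was at -0.46 and Ctsl at -0.14 for low oxygen plus lactate. Ctsa was at -0.16, Ctsb at -0.07, Ctsd at -0.10, Ctsl at -0.31, Ctss at -0.48, Ctsz at -0.10 and Lgmn at -0.13 for the interaction. Leaving out 1 library at a time also reversed some changes, whose whole ranges follow. For low oxygen without lactate Ctsl ranged over -0.05 to 0.32 and Ctss ranged over -0.16 to 0.35. For low oxygen with lactate Ctsb ranged over -0.30 to 0.15, Ctsc ranged over -0.28 to 0.66, Ctsl ranged over -0.13 to 0.55, Ctss ranged over -0.13 to 0.44, Ctsz ranged over -0.47 to 0.25 and Lgmn ranged over -0.37 to 0.06. For lactate in normoxia Ctsa ranged over -0.20 to 0.10, Ctsh ranged over -0.07 to 0.08, Ctsl ranged over -0.17 to 0.12 and Ctss ranged over -0.38 to 0.14. For lactate in low oxygen Ctsa ranged over -0.05 to 0.20, Ctsb ranged over -0.27 to 0.19, Ctsc ranged over -0.12 to 0.82, Ctsd ranged over -0.32 to 0.13, Ctsl ranged over -0.32 to 0.36, Ctss ranged over -0.34 to 0.23, Ctsz ranged over -0.16 to 0.56 and Lgmn ranged over -0.41 to 0.02. For low oxygen plus lactate Ctsc ranged over -0.52 to 0.41, Ctsl ranged over -0.14 to 0.53 and Ctss ranged over -0.31 to 0.37. For the interaction Ctsa ranged over -0.02 to 0.28, Ctsl ranged over -0.30 to 0.39, Ctss ranged over -0.16 to 0.43 and Lgmn ranged over -0.19 to 0.26.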
